A study of Mus musculus with 6 samples.

Results

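To describe how the muscle atrophy program is expressed in the Mc4r KO heart, the rows of 8 genes were looked up by name in the deposited gene table: Fbxo32, Trim63, Trim54, Trim55, Fbxo30, Murc, Mstn and Acvr2b. The table holds 54532 genes and 7 of the 8 names. Murc is not among its names, and its current symbol in RefSeq, Cavin4, is in the table; Cavin4 is therefore given beside the 7 members and is not counted with them. The libraries were made from polyadenylated heart RNA of mice described as male and aged 12 weeks, 3 homozygous Mc4r knockout (Mc4r KO) and 3 wild-type littermates (WT), with 1 library per mouse. All mice were on the C57B/6/N background and received standard chow. The sample titles name muscle, the tissue field names heart and the study's text names the left ventricle. The knockout line was purchased and bred from heterozygous pairs, and the sources used here give no further detail of the allele.

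Muscle loses protein through the ubiquitin-proteasome system, in which an E3 ligase attaches ubiquitin to a chosen protein and the proteasome then degrades it. Fbxo32 (atrogin-1) and Fbxo30 (MUSA1) are F-box proteins that pick substrates for SCF ligases, and Trim63 (MuRF1), Trim55 (MuRF2) and Trim54 (MuRF3) are RING-type ligases that sit on the sarcomere or on microtubules. FOXO transcription factors and the glucocorticoid receptor are known to switch on Fbxo32 and Trim63 in wasting skeletal muscle. Myostatin (Mstn) is a secreted TGF-beta family ligand that restrains muscle growth, and Acvr2b is the activin type II receptor that binds it. Murc, or Cavin4, is a muscle-restricted cavin that coats caveolae.

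The promoters of Trim63 and Trim54 are shown because the libraries of the groups did not overlap in Trim54 and overlapped in Trim63, as described below. The sequences are the 250 bases before the RefSeq start site, on the plus strand of GRCm38.p6, 5′ to 3′. Capitals mark matches, on either strand, to the FOXO site GTAAACA, to the glucocorticoid receptor hexamer AGAACA and to the E-box CANNTG.
Trim63, chr4:134314870-134315119: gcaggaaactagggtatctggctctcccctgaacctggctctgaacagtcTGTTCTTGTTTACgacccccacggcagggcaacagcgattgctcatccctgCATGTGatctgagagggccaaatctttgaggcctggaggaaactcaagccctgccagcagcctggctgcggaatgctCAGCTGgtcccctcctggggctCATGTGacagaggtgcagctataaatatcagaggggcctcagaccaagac
Trim54, chr5:31116362-31116611: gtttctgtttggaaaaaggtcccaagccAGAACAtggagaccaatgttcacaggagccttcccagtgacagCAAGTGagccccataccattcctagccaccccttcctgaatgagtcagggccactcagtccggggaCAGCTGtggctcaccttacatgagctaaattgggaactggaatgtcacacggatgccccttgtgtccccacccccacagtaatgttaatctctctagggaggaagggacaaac
In Trim63, a FOXO match that begins 194 bases before the start site directly follows a glucocorticoid receptor match that begins 200 bases before it, both on the minus strand and without overlap. The Trim54 window holds a glucocorticoid receptor match 222 bases before the start site and no FOXO match. It ends before the gene start in the deposited table, at 31116712. Of 32851 promoter windows of this length, 3.17% hold the FOXO letters, 16.1% the glucocorticoid receptor letters and 66.2% an E-box. The same search also covered CAGACA, a SMAD hexamer that 17.1% of windows hold. It was found in the window of Mstn and in that of no other member in the table. The windows of Fbxo30 and Acvr2b hold none of these motifs. Promoters of 5 members and of Cavin4 were in the RefSeq table, and those of Fbxo32 and Trim55 were not used here. These matches are letters in a window and were not measured as binding.

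The coding sequences of the MuRF genes are related. Trim54 and Trim63 are identical at 70.5% of 1056 aligned bases, Trim54 and Trim55 at 66.3% of 1092, and Trim55 and Trim63 at 67.6% of 1062. The longest run that Trim54 and Trim63 share, 28 bases long, spans coding bases 307 to 334 of Trim54 and 298 to 325 of Trim63 and is shown to make plain how short the identity is.
Shared run of Trim54 and Trim63: aacatcattgacatctacaagcaggagt
None of the 3 MuRF genes has a stretch of 50 bases in common, in the same orientation, with the transcripts of any other GENCODE M21 gene. If its strand is known, a read of that length is thus assigned by sequence to 1 of them. Reverse complements were not compared, and Trim54 overlaps an antisense gene, as described below.

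Mc4r, the deleted gene, had reads in 1 of the 6 libraries, 2 reads in WT replicate 3, so its level in the heart was under the floor of 3 reads and does not check the labels. Reads on genes, recovered from the steps of the FPKM, numbered 14767929 to 16047003 in the WT libraries and 14691076 to 15649074 in the Mc4r KO libraries. For a gene of 1 kb, a floor of 3 reads equals 0.176 to 0.213 FPKM, depending on the library. Mitochondrial transcripts took 47.1% to 59.3% of the summed FPKM in WT and 43.0% to 46.6% in Mc4r KO. WT replicate 3, at 47.1%, stood apart from the other WT libraries. Its log2 FPKM correlated across genes with Mc4r KO replicate 1 at r = 0.962 and with WT replicates 1 and 2 at 0.946 and 0.952, so results that turn on it are also given without it. All 8 cardiomyocyte markers were expressed. Their summed FPKM ran from 14254 to 15331 in WT and from 17233 to 18824 in Mc4r KO, without overlap. Actc1 had the highest level and the largest rise of them, with means of 5178 in WT and 7539 in Mc4r KO. Scaling to this sum therefore leans on Actc1. In 3 of the 8 every Mc4r KO library lay above every WT library, and in 0 below. Tnni3 was level, at means of 1675 and 1669, and Pln was lower, at 581 and 455. The 10 skeletal muscle markers summed to 1.61 to 2.67 in WT and 1.62 to 2.50 in Mc4r KO, with Myh4 at 0 in every library. Thus the markers of heart muscle were present, and those of skeletal muscle, where these ligases are best known, were near 0 in both groups. Atrial markers summed to 28.7 to 797.5 in WT and 6.29 to 136.5 in Mc4r KO, and red cell markers to 859 to 6344 and 620 to 1651. The highest sum of each was that of WT replicate 3. The atrial marker Myl7 was at 307 FPKM there, against 0.240 and 28.1 in WT replicates 1 and 2 and 0.528 to 38.8 in Mc4r KO. The red cell marker Hbb-bs was at 3021 there, against 2194 and 399 in WT replicates 1 and 2. Adipocyte markers summed to 0.466 to 1.02 in WT and 0.0283 to 0.328 in Mc4r KO, with Lep and Retn at 0 in every library. Immune cell markers summed to 17.9 to 24.8 and 14.5 to 16.7, with no marker at 0 throughout. Sums of smooth muscle, fibroblast and endothelial markers overlapped between the groups. The part of these differences in the results on the members was not tested, and in whole tissue fewer cells of a type and less RNA per cell cannot be told apart.

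The members formed a fixed order of levels in FPKM, which is per length and can be compared between genes. Trim54 was the most abundant, followed by Trim63, Trim55, Fbxo32, Fbxo30, Acvr2b and Mstn. The mean over all 6 libraries was 90.7 for Trim54, 47.9 for Trim63, 26.7 for Trim55, 19.6 for Fbxo32, 5.36 for Fbxo30, 0.987 for Acvr2b and 0.227 for Mstn. The whole range of each gene lay above that of the next in all 6 libraries. The closest neighbours were Trim55 and Fbxo32, where the lowest Trim55 value was 24.4 and the highest Fbxo32 value 22.5. Cavin4, at a mean of 49.1, overlapped Trim63 and could not be ranked against it.

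**Figure D1:**
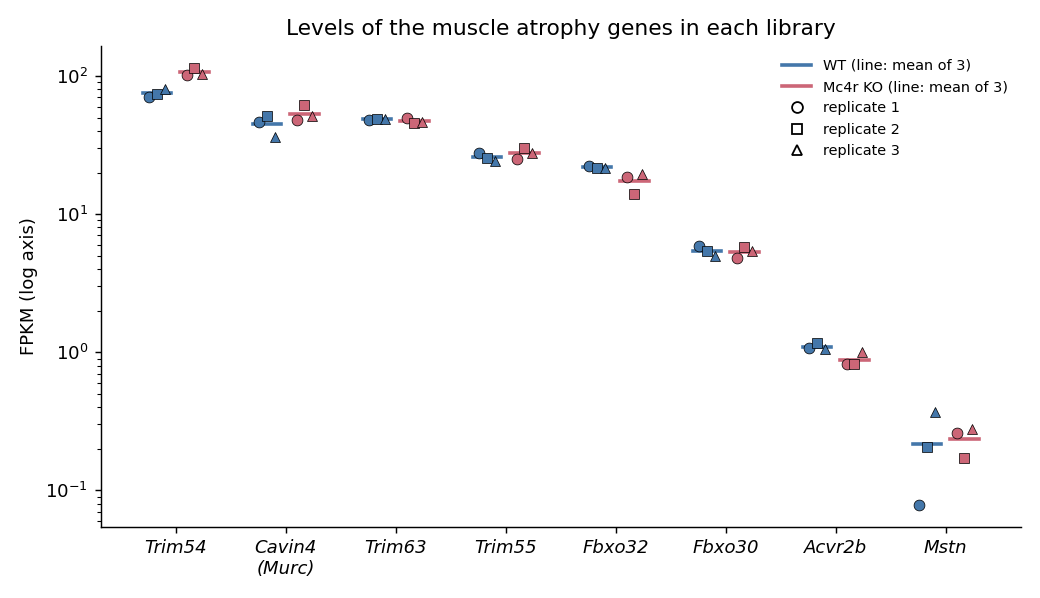
FPKM of the 7 members and of Cavin4 (Murc) on a log axis, with points for single libraries, marker shapes for the replicate number and lines for the mean of 3 libraries (WT in blue, Mc4r KO in red). The order of the members runs from Trim54, with means of 75.2 in WT and 106 in Mc4r KO, down to Mstn, with means near 0.2, and the groups separate visibly in Trim54, Fbxo32 and Acvr2b.

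To test whether Mc4r deletion went with a change of these genes, the groups were compared with limma on log2(FPKM + 0.1) over the 18035 genes whose mean FPKM reached 0.1. Genes were called when the Benjamini-Hochberg adjusted p was under 0.05 and log2 fold change exceeded 0.75 in size. Because of the added 0.1, log2 fold changes of weakly expressed genes come out too small. By this rule 0 of the 7 members were called in limma, against 0.460% of all genes tested, 0.316% higher and 0.144% lower in Mc4r KO. Limma voom on the recovered reads also called 0 of 7. At an unadjusted p under 0.05, which 20.9% of all genes reached, 12.0% in the higher and 8.83% in the lower direction, there was 1 member higher (Trim54) and 1 lower (Fbxo32) in Mc4r KO. In 1 member every Mc4r KO library lay above every WT library and in 2 every one lay below, where 14.1% and 12.4% of all genes did so. The median log2 fold change of the members was -0.02 and that of all genes -0.01.

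Trim54 showed the widest separation among the members. It encodes MuRF3, a microtubule-binding ligase of the sarcomere. In replicate order, the WT hearts gave an FPKM of 70.9, 73.7 and 81.0 and the Mc4r KO hearts of 101, 115 and 103. The groups did not overlap, and the WT library nearest to the Mc4r KO group was replicate 3. The means were 75.2 ± 5.23 in WT and 106 ± 7.31 in Mc4r KO (SD, n = 3 each), a ratio of 1.41. The log2 fold change was 0.50 (standard error 0.09, 95% confidence interval 0.28 to 0.71), and the adjusted p was 0.0654 in limma. The difference exceeded the spread of either group but missed both the adjusted p and the fold that a call needs. Trim54 (ENSMUSG00000062077) occupies chromosome 5, bases 31116712 to 31137630 of the plus strand, where the antisense gene Gm15469 covers 26.6% of its exons. Gm15469 had only 5 to 16 reads per library, against 1436 to 2500 for Trim54. Whether counting used the strand is not given in the sources used here, so reads from the overlap cannot be assigned to either gene with certainty.

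The size of the Trim54 difference depended on the scaling, and its direction did not. Without WT replicate 3 the log2 fold change was 0.55 (adjusted p = 0.0167, limma). Without any other single library the log2 fold change was 0.44 to 0.53 (adjusted p = 0.147 to 0.227, limma). It was 0.29 with quantile normalization and 0.30 (adjusted p = 0.117, limma) when libraries were scaled to the FPKM outside the mitochondrial chromosome. That scaling shifted the median of all genes to -0.19. It was 0.22 (adjusted p = 0.171, limma) with scaling to the summed cardiomyocyte markers, which moved that median to -0.27. Per 1000 FPKM of cardiomyocyte markers, Trim54 was at 4.72, 4.81 and 5.69 in WT and 5.86, 6.09 and 5.73 in Mc4r KO. The groups still did not overlap on that scale, with WT replicate 3 just under the lowest Mc4r KO library. The latter pair of scalings lowered the log2 fold change of every member. With the cardiomyocyte markers, that of Trim63 was -0.32 (adjusted p = 0.0632, limma).

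Trim63 encodes MuRF1, the ligase best known for degrading thick filament proteins in atrophy. WT hearts had an FPKM of 48.1, 49.1 and 48.8 and Mc4r KO hearts of 49.5, 45.3 and 46.5. The groups overlapped, and all 6 values lay close together. The means were 48.6 ± 0.519 and 47.1 ± 2.19 (SD, n = 3 each). This is -0.05 on the log2 scale, with a 95% confidence interval of -0.22 to 0.13 (adjusted p = 0.759, limma). The interval excludes a change of the size required for a call. Trim55, or MuRF2, was at 27.7, 25.6 and 24.4 in WT and 25.1, 29.9 and 27.9 in Mc4r KO, again with overlap. Its log2 fold change was 0.09 (95% confidence interval -0.14 to 0.32, adjusted p = 0.625, limma), and the sign turned with the scaling, to -0.10 outside the mitochondrial chromosome.

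Within each library the MuRF genes can be compared without any scaling. Trim54 held 48.4%, 49.7% and 52.5% of the summed MuRF FPKM in WT and 57.5%, 60.4% and 58.1% in Mc4r KO. The share of Trim63 was 32.8%, 33.1% and 31.6% in WT and 28.2%, 23.9% and 26.2% in Mc4r KO. The groups did not overlap in either share. The share of Trim55 was 18.9%, 17.2% and 15.8% in WT and 14.3%, 15.8% and 15.7% in Mc4r KO. WT replicate 3, at 15.82%, and Mc4r KO replicate 2, at 15.76%, were almost equal, so the groups only just failed to overlap. There were 1.55 ± 0.101 Trim54 FPKM per Trim63 FPKM in WT and 2.26 ± 0.249 in Mc4r KO (SD, n = 3 each). These shares and ratios do not depend on the scaling between libraries. They restate in part the Trim54 difference given above, and the difference between the groups in them was not tested.

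**Figure D2:**
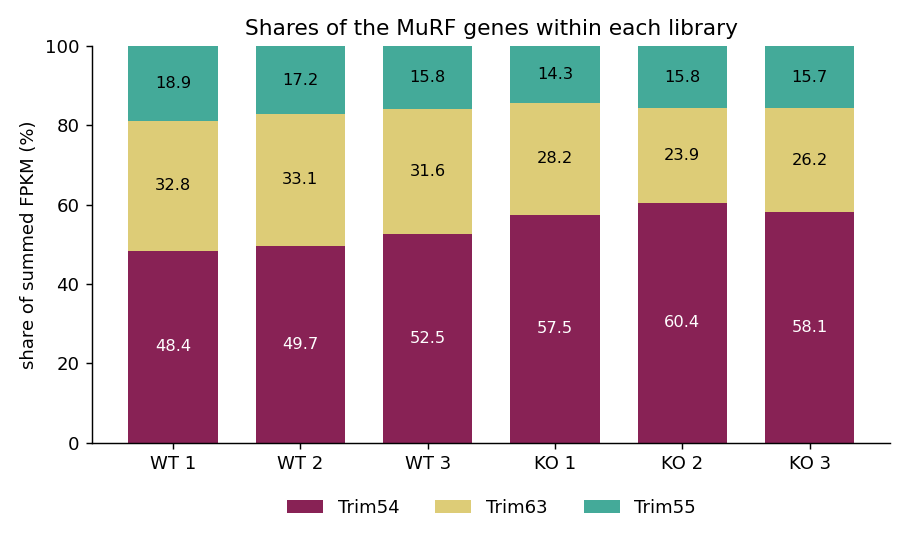
Share (%) of Trim54, Trim63 and Trim55 in their summed FPKM within each library, as stacked bars from 0 to 100. Trim54 takes 48.4% to 52.5% in the 3 WT libraries and 57.5% to 60.4% in the 3 Mc4r KO libraries, and the share of Trim63 is lower in each Mc4r KO library.

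Among the F-box genes, Fbxo32 was lower in Mc4r KO and Fbxo30 was not separated. Fbxo32, or atrogin-1, was at 22.5, 21.6 and 21.4 FPKM in WT and 18.4, 14.0 and 19.5 in Mc4r KO. Every Mc4r KO library lay below every WT library, and Mc4r KO replicate 2 was the lowest by a wide margin. The means were 21.8 ± 0.566 in WT and 17.3 ± 2.92 in Mc4r KO (SD, n = 3 each), a ratio of 0.793. The log2 fold change was -0.35 (standard error 0.13, 95% confidence interval -0.66 to -0.04, unadjusted p = 0.0325 and adjusted p = 0.200 in limma), so Fbxo32 did not pass the test over all genes. Without Mc4r KO replicate 2 the log2 fold change was -0.20 (adjusted p = 0.394, limma), so its size rested in large part on that library, while without WT replicate 3 it was -0.36. It was -0.54 (adjusted p = 0.117, limma) with scaling outside the mitochondrial chromosome. Scaled to the summed cardiomyocyte markers, the log2 fold change was -0.62 (adjusted p = 0.0435, limma), still short of the fold required. Per 1000 FPKM of those markers Fbxo32 was at 1.495, 1.41 and 1.501 in WT and 1.07, 0.743 and 1.08 in Mc4r KO. Fbxo32 (ENSMUSG00000022358) occupies chromosome 15, bases 58175879 to 58214932 of the minus strand, with 2.67% of its exonic bases opposite the antisense gene Gm15943.

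Fbxo30, the MUSA1 ligase that BMP signalling is known to hold down in muscle, was at 5.84, 5.39 and 4.94 FPKM in WT and 4.83, 5.75 and 5.39 in Mc4r KO. The groups covered nearly the same range. Its log2 fold change was -0.02 (95% confidence interval -0.28 to 0.25, adjusted p = 0.951, limma). Its sign turned when WT replicate 1 or Mc4r KO replicate 1 was left out, to 0.040 and 0.051. The ratio of Fbxo32 to Trim63, the classical pair of atrophy markers, was 0.467, 0.440 and 0.439 in WT and 0.372, 0.309 and 0.419 in Mc4r KO. It was lower in every Mc4r KO library, with Mc4r KO replicate 3 close to the WT values, and the difference in this ratio was not tested.

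**Figure D3:**
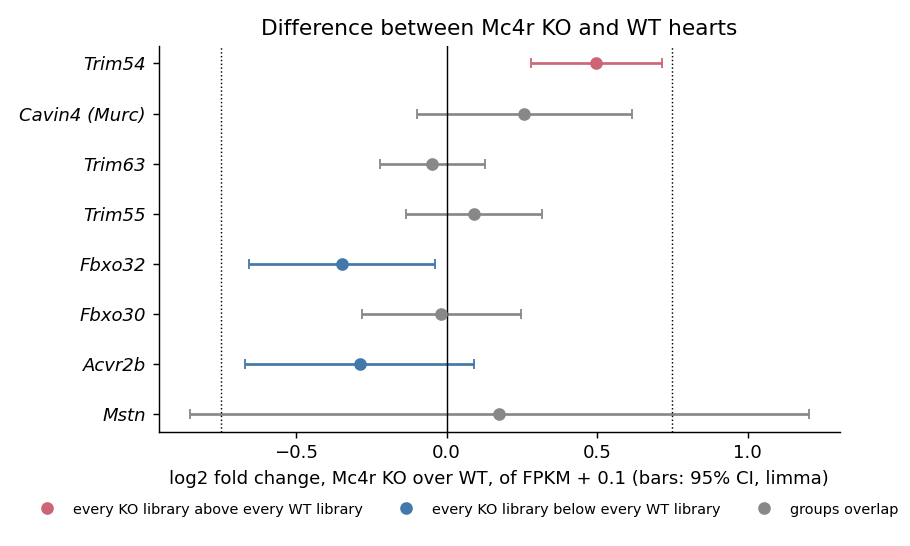
Log2 fold change of Mc4r KO over WT for the 7 members and Cavin4 (Murc), with 95% confidence intervals from limma as bars and the threshold of 0.75 in each direction as dotted lines. Colours tell whether the libraries of the groups overlap. Trim54 at 0.50 and Fbxo32 at -0.35 are the members whose intervals exclude 0, and Mstn has the widest interval, from -0.85 to 1.20.

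Mstn was near the limit of detection in the heart. The recovered reads were 3, 8 and 17 in WT and 11, 7 and 12 in Mc4r KO, which is an FPKM of 0.0787, 0.206 and 0.369 against 0.262, 0.170 and 0.277. WT replicate 1 was at the floor of 3 reads and the groups overlapped fully. The log2 fold change was 0.17 with a 95% confidence interval of -0.85 to 1.20 (adjusted p = 0.855, limma), which reaches past the fold required for a call in both directions. Without WT replicate 1 the sign turned, to -0.19. Mstn (ENSMUSG00000026100) occupies chromosome 1, bases 53061640 to 53068079 of the plus strand.

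Acvr2b, the myostatin receptor, was at 1.07, 1.17 and 1.05 FPKM in WT and 0.820, 0.821 and 0.9997 in Mc4r KO, from 49 to 70 reads per library. No Mc4r KO library reached the WT range, with Mc4r KO replicate 3 close to the WT group. The log2 fold change was -0.29 (95% confidence interval -0.67 to 0.09, adjusted p = 0.359, limma) and did not pass the test. It was -0.47 (adjusted p = 0.193, limma) with scaling outside the mitochondrial chromosome and -0.54 (adjusted p = 0.0724, limma) with scaling to the cardiomyocyte markers. Its paralog Acvr2a, which also binds activins and myostatin, was at 4.54 ± 0.766 FPKM in WT and 3.79 ± 0.374 in Mc4r KO (SD, n = 3 each), or -0.24 on the log2 scale (adjusted p = 0.414, limma). An opposite-strand gene, Orc4, covers 7.84% of its exons. Acvr2b made up 17.7%, 18.9% and 22.3% of the summed FPKM of the pair in WT and 17.9%, 16.4% and 22.6% in Mc4r KO. That share overlapped between the groups. As it was at most 22.6% in any library, Acvr2a was the more abundant activin type II receptor in all 6 hearts.

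Cavin4, the gene formerly named Murc, was at 46.7, 51.4 and 36.4 FPKM in WT and 48.0, 61.2 and 50.9 in Mc4r KO. The groups overlapped, and WT replicate 3 was the lowest. Its log2 fold change was 0.26 (95% confidence interval -0.10 to 0.61, adjusted p = 0.382, limma). Of the 8 cavin, caveolin and Ehd genes in the list to which it belongs, 0 were called by limma, with 2 higher and 1 lower at an unadjusted p under 0.05. Cav3, the muscle caveolin that Cavin4 accompanies, was at 30.2, 28.3 and 40.2 FPKM in WT and 48.6, 62.6 and 58.0 in Mc4r KO, without overlap. Its log2 fold change of 0.78 passed the fold and not the test (adjusted p = 0.0744, limma). Cav3 was called in 4 of 22 alternatives, among them limma voom and the fit without WT replicate 3, where it was at 0.94 (adjusted p = 0.0127, limma). Cavin1, the cavin found in most tissues, was at 78.7 ± 3.76 in WT and 94.95 ± 5.35 in Mc4r KO (SD, n = 3 each). On the log2 scale Cavin1 differed by 0.27 (adjusted p = 0.141, limma). Cavin4, Cav3 and Cavin1 were the only 3 of the 8 with a positive log2 fold change, and the median of the list was -0.08. Cav2 was the lowest, at -0.44 (adjusted p = 0.190, limma).

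The other genes of the pathway were read from 6 lists, 98 tested genes of 104 in the table besides the members. Limma called 2 of them, both higher in Mc4r KO, where 0.316% of all genes were called in that direction. The lists were chosen with earlier results of these data known, so this comparison cannot show an excess. At an unadjusted p under 0.05 there were 17 higher and 13 lower, where 12.0% and 8.83% of all genes were. The counts of the single lists at this threshold are to be read beside the same shares. The median log2 fold change of the 98 genes was 0.0033. The 2 calls were Tnfrsf12a, the receptor of the cytokine TWEAK that drives muscle wasting, and Fkbp5, a chaperone gene that glucocorticoids induce. Fkbp5 was at 1.48, 1.90 and 2.11 FPKM in WT and 7.06, 4.31 and 8.57 in Mc4r KO, a log2 fold change of 1.77 (adjusted p = 0.0462, limma). Tnfrsf12a was at 6.31, 7.24 and 6.93 in WT and 21.98, 40.4 and 24.3 in Mc4r KO, a log2 fold change of 2.01 (adjusted p = 0.0283, limma). In both genes the groups did not overlap. The call of Fkbp5 was lost in 12 of 22 alternatives and that of Tnfrsf12a in 8. FPKM as deposited and a fold cut of 1.5 are among the 22, reuse the reported fit and could not lose a call. Both calls were lost without WT replicate 1 or 2 or without Mc4r KO replicate 1 or 3, and that of Fkbp5 also without Mc4r KO replicate 2. Klf15, which glucocorticoids also induce and which is known to raise Fbxo32 and Trim63 in skeletal muscle, was at 19.9 ± 2.48 in WT and 24.0 ± 2.51 in Mc4r KO (SD, n = 3 each; adjusted p = 0.262, limma). Other genes of the same list were lower in every Mc4r KO library. Nr3c1, the glucocorticoid receptor gene, was at -0.38 on the log2 scale (adjusted p = 0.118, limma) and Igf1 at -0.86 (adjusted p = 0.0744, limma). Igf1 was called in 4 of 22 alternatives. Of the 19 tested genes in this list, 5 were higher and 4 lower at an unadjusted p under 0.05.

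The FOXO genes did not pass the test. Foxo1 was at 3.62, 3.66 and 3.18 FPKM in WT and 2.64, 2.64 and 3.21 in Mc4r KO, with Mc4r KO replicate 3 above WT replicate 3. Its log2 fold change was -0.30 (adjusted p = 0.242, limma), and 7.78% of its exonic bases lie opposite another gene. Foxo3 was at 14.6 ± 0.870 in WT and 16.1 ± 3.22 in Mc4r KO (SD, n = 3 each). On the log2 scale this is 0.13 (adjusted p = 0.664, limma). Foxo4 was at 15.3 ± 0.806 in WT and 17.5 ± 0.638 in Mc4r KO (SD, n = 3 each), without overlap. Its log2 fold change was 0.20 (unadjusted p = 0.0459 and adjusted p = 0.231 in limma). For Foxo6 it was 0.11 (adjusted p = 0.907, limma). Among 26 genes of other ligases and of ubiquitin conjugation, 0 were called by limma, 3 were higher and 3 lower at an unadjusted p under 0.05, and the median was -0.02. Mul1, a mitochondrial ligase, had a log2 fold change of 0.41 (adjusted p = 0.123, limma). For Fbxl22, an F-box gene of cardiac muscle, it was 0.58 (adjusted p = 0.126, limma), with 8.06% of the exonic bases opposite Herc1. Fbxo40, a muscle F-box gene that targets IRS1, was at 41.0 ± 7.01 in WT and 47.0 ± 5.33 in Mc4r KO (SD, n = 3 each; adjusted p = 0.482, limma).

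Of 15 tested genes for ligands, inhibitors and processing of myostatin, 0 were called by limma, with 2 higher and 2 lower at an unadjusted p under 0.05. Furin, the protease that cleaves the myostatin precursor and many others, was at 7.26, 8.03 and 9.69 FPKM in WT and 14.0, 13.6 and 16.0 in Mc4r KO. Its groups were well apart, and its log2 fold change of 0.80 missed the test (adjusted p = 0.0535, limma). Wfikkn2, a secreted inhibitor that binds myostatin and GDF11, was at 1.91, 2.47 and 2.19 in WT and 1.21, 0.826 and 1.01 in Mc4r KO. It was lower in every Mc4r KO library, with a log2 fold change of -1.05 (adjusted p = 0.0579, limma). Furin and Wfikkn2 were each called in 6 of 22 alternatives, among them limma voom and the fit without WT replicate 3. In that fit Furin was at 0.91 (adjusted p = 0.00978, limma) and Wfikkn2 at -1.04 (adjusted p = 0.0353, limma). Without any other single library neither was called. The adjusted p in limma was then 0.133 to 0.176 for Furin and 0.110 to 0.198 for Wfikkn2.

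The other ligands were expressed weakly. Gdf11, the closest relative of myostatin, was at 0.709 ± 0.215 FPKM in WT and 0.670 ± 0.0663 in Mc4r KO (SD, n = 3 each; adjusted p = 0.943, limma), above Mstn in each library. Inhba, which encodes the activin A subunit, was at 0.418 ± 0.0941 and 0.542 ± 0.198 (SD, n = 3 each; adjusted p = 0.621, limma). Follistatin (Fst), which traps both ligands, had 7 to 12 reads per library and a log2 fold change of -0.15 (adjusted p = 0.861, limma). Fstl3, a follistatin relative, was at 0.684 ± 0.245 in WT and 1.13 ± 0.188 in Mc4r KO (SD, n = 3 each), or 0.68 on the log2 scale (adjusted p = 0.203, limma). Fstl3 was called in 1 of 22 alternatives, without WT replicate 3, at 0.92 (adjusted p = 0.0497, limma). As 47.3% of its exonic bases lie opposite Prss57, its level is uncertain.

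Of 13 tested receptors and SMADs, 0 were called by limma, and 1 was higher and 2 lower at an unadjusted p under 0.05. Smad6, an inhibitory SMAD, had a log2 fold change of 0.65 (adjusted p = 0.129, limma). Without WT replicate 3 it was 0.84 (adjusted p = 0.0199, limma) and Smad6 was called, in that alternative alone of the 22. Tgfbr1, a type I receptor that myostatin can use, had a log2 fold change of -0.42 (adjusted p = 0.134, limma). Among 17 tested substrates and sarcomere partners, 0 were called by limma, with 4 higher and 1 lower at an unadjusted p under 0.05. The Z-disc genes Ldb3 and Csrp3 were close to Trim54 in size, Ldb3 at a log2 fold change of 0.48 (adjusted p = 0.0871, limma) and Csrp3 at 0.45 (adjusted p = 0.0966, limma). Their Mc4r KO libraries were all above the WT libraries.

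**Figure D4:**
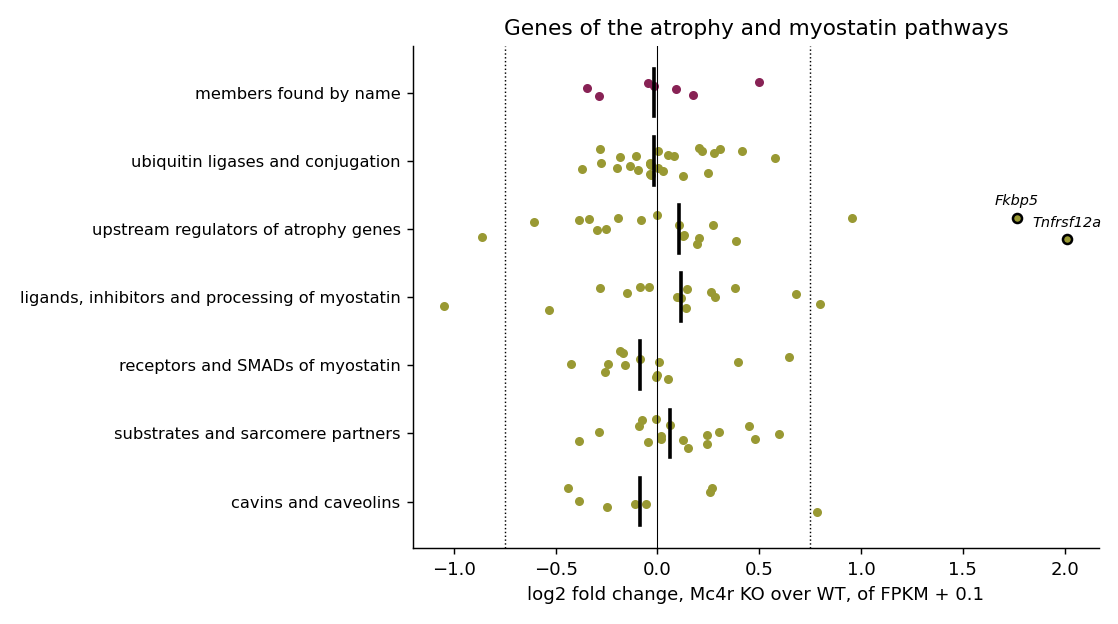
Log2 fold change of Mc4r KO over WT for each tested gene of the members and of the 6 pathway lists, with a black bar at the median of each list and dotted lines at 0.75 in each direction. The medians lie between -0.08 and 0.12, and Fkbp5 and Tnfrsf12a, ringed in black, are the genes called.

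As a description of the pattern over the 6 libraries, each member with a mean FPKM of at least 1 was compared by Pearson's r of log2(FPKM + 0.1) with 10219 protein-coding genes of that level. Trim54 was most like Khdrbs3 and Snx21, at r = 0.9996 and 0.999, and 1016 genes reached at least 0.9. For Fbxo32 the nearest were Snx7 and Clk1 at 0.990 and 0.989, and 157 genes reached 0.9. Trim63 was most like Frmd4b (0.993) and Zdhhc1 (0.984), Trim55 like Gyg (0.978) and Ccdc43 (0.974), and Fbxo30 like Kpna2 (0.984) and Riox2 (0.979). Kpna2 shares 62.6% of its words of 50 bases with other genes, and 22.4% of Riox2's exonic bases lie opposite another gene. The genes of a pair share their 6 libraries and groups, and these values carry no test.

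**Figure D5:**
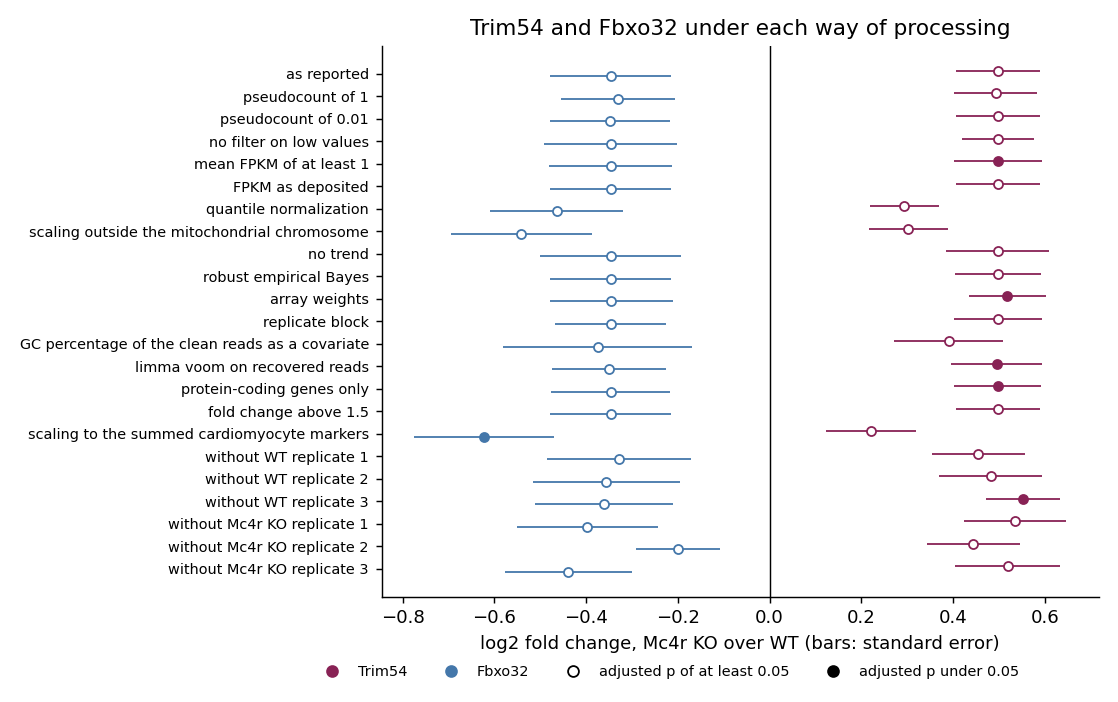
Log2 fold change with its standard error for Trim54 (purple) and Fbxo32 (blue) as reported and under 22 alternatives, with filled points where the adjusted p was under 0.05. Trim54 stays between 0.22 and 0.55 and Fbxo32 between -0.62 and -0.20, and neither passes 0.75 in any of them.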

How the data were processed

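The authors removed adapter and low-quality reads, aligned paired ends with HISAT2 2.0.5 to mm10 (per the labels), counted genes with featureCounts and deposited FPKM per gene and library. The annotation release is not given in the sources used here, and 99.8% of the identifiers are in GENCODE M21 of GRCm38. In each library 100% of values, multiplied by gene length, came out as whole reads (tolerance 0.02). Median-of-ratios factors were 1 in each library.

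Limma 3.58.1 (R 4.3.3) was fitted to log2(FPKM + 0.1) without covariates, with an intensity trend in the empirical Bayes step, over all genes whose mean FPKM reached 0.1, with two-sided p-values and Benjamini-Hochberg adjustment. The script was tested on simulated data. Exon overlaps and shared words of 50 bases came from GENCODE M21, and coding sequences were aligned with Biopython 1.88. With 3 against 3 mice, an exact permutation test has a smallest p of 0.1 and was not used. Figures were drawn with matplotlib 3.10.9.

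The members and all lists were chosen with earlier results of these data known. The pathway lists also name older symbols of the cavin genes, which the table lists under their current names. Genes named are the members, 10 pathway genes chosen by name (Acvr2a, Gdf11, Inhba, Fst, Fstl3, Foxo1, Foxo3, Klf15, Fbxo40 and Cavin4), in each list the called genes or, where there were under 2, those of smallest p up to 2, and the 2 genes nearest in pattern. Cav2, Nr3c1, Igf1, Foxo4 and Foxo6 were named outside this rule, after seeing the data. Scaling to the cardiomyocyte markers was also added after seeing the data. The GC percentage used as a covariate was that of the clean reads in the study's read table.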

Additional observations from a re-analysis of the deposited data

How the results depend on the processing

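The number of members called was 0 under all 22 alternatives. As the median-of-ratios factors were 1, the alternative with FPKM as deposited repeats the reported fit. A fold change above 1.5 only loosens the cut on that fit. The adjusted p of Trim54 was under 0.05 in 5 of them and that of Fbxo32 in 1, always below the required fold. Over the alternatives they ranged from 0.22 to 0.55 and from -0.62 to -0.20. Signs turned for Trim55 with quantile normalization (-0.044), scaling outside the mitochondrial chromosome (-0.10) and scaling to the cardiomyocyte markers (-0.19), for Fbxo30 with the GC covariate (0.15) and without WT replicate 1 or Mc4r KO replicate 1 (-0.077 to 0.051 over single libraries left out), and for Mstn with the GC covariate (-0.74), scaling to the cardiomyocyte markers (-0.011) and without WT replicate 1 (-0.19 to 0.51 over single libraries left out). Acvr2b and Mstn could not be fitted at a mean FPKM of at least 1, as they were filtered out. The other log2 fold changes of the members kept their sign.

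Limma called 83 genes, 57 of them higher in Mc4r KO. It called 44 with a pseudocount of 1, 10 without the filter on low values, 147 at a mean FPKM of at least 1, 49 with quantile normalization, 41 (16 higher) with scaling outside the mitochondrial chromosome, 21 without the trend, 435 with array weights, 1 with the GC covariate, 314 with limma voom, 204 over protein-coding genes and 637 (69 higher) with scaling to the cardiomyocyte markers. Of the pathway genes outside the members, 2 were called, and under the same settings 1, 0, 4, 1, 1, 0, 7, 0, 7, 6 and 6. With single libraries left out, between 7 and 726 genes and between 0 and 9 pathway genes were called. The upper values, 726 and 9, came without WT replicate 3, and without any 1 of the other 5 libraries there were 7 to 14 and 0 or 1. The cause of these moves was not tested.

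With the replicate number as a block, 11 genes, 0 members and 0 pathway genes were called. The sources used here do not say whether the numbers pair the libraries. Deviations from the group means correlated at r = -0.141, 0.00735 and -0.0818 between WT and Mc4r KO libraries of the same number. Between libraries of different numbers r was -0.0321 to 0.115. With 3 libraries per group these values cannot settle whether the numbers pair them. Few reads lay behind Mstn (3 to 17 per library) and Fst (7 to 12).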
